A study of Mus musculus with 2 samples.

Results

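The cells described here are neutrophils with high Ccl3 and Ccl4 from EMT6 tumors, 1070 of the 23657 cells deposited and 1070 of 1963 neutrophils. A cell counted as a neutrophil when S100a8, S100a9, Csf3r, Cxcr2 and Il1r2 together made up at least 1% of its unique molecular identifiers (UMIs, each standing for 1 captured transcript) and when it held at most 2 UMIs of the tumor cell keratins Krt8 and Krt18. A neutrophil was taken as Ccl3/Ccl4-high when Ccl3 and Ccl4 together reached 0.2% of its UMIs. Cells under 200 genes or with 20% or more mitochondrial UMIs had been removed before. These 7 genes and the limit on Krt8 and Krt18 chose the cells, so their levels below only describe the choice. Every contrast with the other neutrophils is a description without a test.

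EMT6 is a mouse mammary carcinoma line used as a model of triple-negative breast cancer, and 200000 cells of it were injected under the skin of immunocompetent BALB/c mice. Both groups received LLY-283, an inhibitor of the arginine methyltransferase PRMT5, at 50 mg/kg on a schedule of 3 days with drug and 4 without, and the PARP inhibitor olaparib at 50 mg/kg daily. The Combo group also received anti-PD-1 antibody, 200 µg every 3 days. Each group is 1 library made from the pooled tumors of 3 mice, no untreated or single-drug library is compared here, each library is called by its group below, and a difference between treatments cannot be told apart from a difference between these 2 libraries. No p-value is therefore given, and every interval in square brackets is an exact 95% interval that covers counting error only.

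Neutrophils are short-lived granulocytes that enter tumors from the blood along gradients of CXC chemokines sensed by Cxcr2. Ccl3 and Ccl4 are secreted CC chemokines that macrophages, lymphocytes and activated neutrophils release, and that draw leukocytes through CC chemokine receptors such as Ccr1. Transcription of such chemokine genes in myeloid cells is known to follow inflammatory signals that act through NF-kB, a family of transcription factors whose targets include their own inhibitors.

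In Olaparib + LLY-283, 16115 cells with 147214934 UMIs were deposited, of which 16029 passed the filters, 694 were neutrophils and 419 were Ccl3/Ccl4-high. In Combo, 7542 cells with 162522700 UMIs were deposited, 5956 passed, 1269 were neutrophils and 651 were Ccl3/Ccl4-high. Deposited cells at or over the mitochondrial limit numbered 86 in Olaparib + LLY-283 and 1586 in Combo. Neutrophils of Olaparib + LLY-283 were shallow: its Ccl3/Ccl4-high cells had a median of 685 UMIs and its other neutrophils 662, against 1984 and 1915.5 in Combo. No deposited cell of either library had fewer than 500 UMIs, and 29.6% of the Ccl3/Ccl4-high cells of Olaparib + LLY-283 lay under 600 UMIs, against 0.307% in Combo. The 2 libraries shared 39 cell barcodes, none of which was a neutrophil in both. Another 25 and 29 cells met the neutrophil share but held more than 2 keratin UMIs, and 13 and 19 met it but were over the mitochondrial limit.

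Neutrophil markers that the choice did not use were detected in both libraries. Summed over the Ccl3/Ccl4-high cells and written as UMIs of a gene per 1000000 UMIs of the class (CPM), Il1b, a cytokine precursor gene abundant in activated neutrophils, stood at 10034 and 14952 CPM in Olaparib + LLY-283 and in Combo. The lipolysis inhibitor G0s2 was at 4177 and 5722 CPM, and the secreted protein Retnlg at 1698 and 621 CPM. The list of 16 granule and immature neutrophil genes summed to 568 and 988 CPM, with Lcn2 as its most abundant gene at 94 and 634 UMIs and 7 and 2 of its genes at 0. Its genes of early granule formation in the bone marrow were at or near 0, with Elane at 0 UMIs, Mpo at 0 and 1, Camp at 0 and 3 and Ltf at 1 and 1 UMIs. Ly6g, which encodes a surface marker of mouse neutrophils, went against the label with only 2 and 6 UMIs. The 5 most abundant genes outside mitochondrial and ribosomal genes were the same in both libraries: S100a9, Fth1, Cxcl2, S100a8 and Malat1.

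Defining markers of lymphocytes were at or near 0 in these cells. Of 14 T and NK cell markers, 10 had no UMI in Olaparib + LLY-283 and 4 had none in Combo, and the most abundant, Cd3d, reached 3 and 13 UMIs. All 6 B and plasma cell markers were at 0 in the former library and 5 of 6 in the latter, and the eosinophil genes Epx and Prg2 and the basophil gene Mcpt8 were at 0 in both. The list of 10 basophil and mast cell markers summed to 843 and 1594 CPM, nearly all of it from Hdc, the histidine decarboxylase gene, which is also on the neutrophil list and had 276 and 2165 UMIs, while 6 of the 10 were at 0 in each library. Marker RNA of macrophages, dendritic cells and fibroblasts was present. The macrophage list of 15 genes summed to 1758 and 1218 CPM, with Cd63 as its most abundant gene and none of its genes at 0. The 12 dendritic cell markers summed to 765 and 185 CPM and the 7 fibroblast markers to 2401 and 817 CPM. C1qa, a defining macrophage gene, stood at 68.8 and 41.8 CPM.

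Within the neutrophils, cells lay on both sides of the 0.2% limit without a gap. Ccl3/Ccl4-high cells made up 60.4% [56.6 to 64.0] of the neutrophils of Olaparib + LLY-283 (419 of 694) and 51.3% [48.5 to 54.1] of those of Combo (651 of 1269). The 3 members nearest to the limit held 0.203 to 0.211% and, in Combo, from the limit itself to 0.202%, and the 3 nearest neutrophils below it held 0.197 to 0.199% and about 0.199%. Between 0.2 and 0.3% lay 32 and 67 members, and between 0.1 and 0.2% lay 68 and 105 other neutrophils. In shallow cells few UMIs decide the call, and 56 members of Olaparib + LLY-283 but only 4 of Combo rested on 2 chemokine UMIs. No chemokine UMI was found in 189 and 382 of the other neutrophils.

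The share of Ccl3/Ccl4-high cells varied with depth. Among neutrophils of 500 to under 800 UMIs the share was 59.1% [54.6 to 63.5] in Olaparib + LLY-283 and 28.8% [17.8 to 42.1] in Combo. At 800 to under 1200 UMIs it was 71.8% [63.2 to 79.3] and 54.8% [44.2 to 65.2], at 1200 to under 2000 UMIs 58.7% [43.2 to 73.0] and 50.1% [45.7 to 54.5], and at 2000 to under 4000 UMIs 34.6% [17.2 to 55.7] and 54.2% [50.0 to 58.4]. The reversed order at this last depth rests on 26 cells of Olaparib + LLY-283, and the intervals overlap; from 4000 UMIs on that library had only 4 neutrophils. The summed level of the 2 chemokines over all neutrophils, which does not count cells, was almost equal, at 7846 and 7816 CPM. Within the same depth steps below 4000 UMIs it was not. From shallow to deep it was 8997, 9940, 6110 and 2276 CPM in Olaparib + LLY-283 and 3370, 5266, 6899 and 9446 CPM in Combo. When every cell was thinned to 500 UMIs the shares were 66.7% and 56.8%, so the order over all neutrophils was the same at matched depth. Whether depth or the cells themselves set the order of the libraries cannot be told apart.

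**Figure D1:**
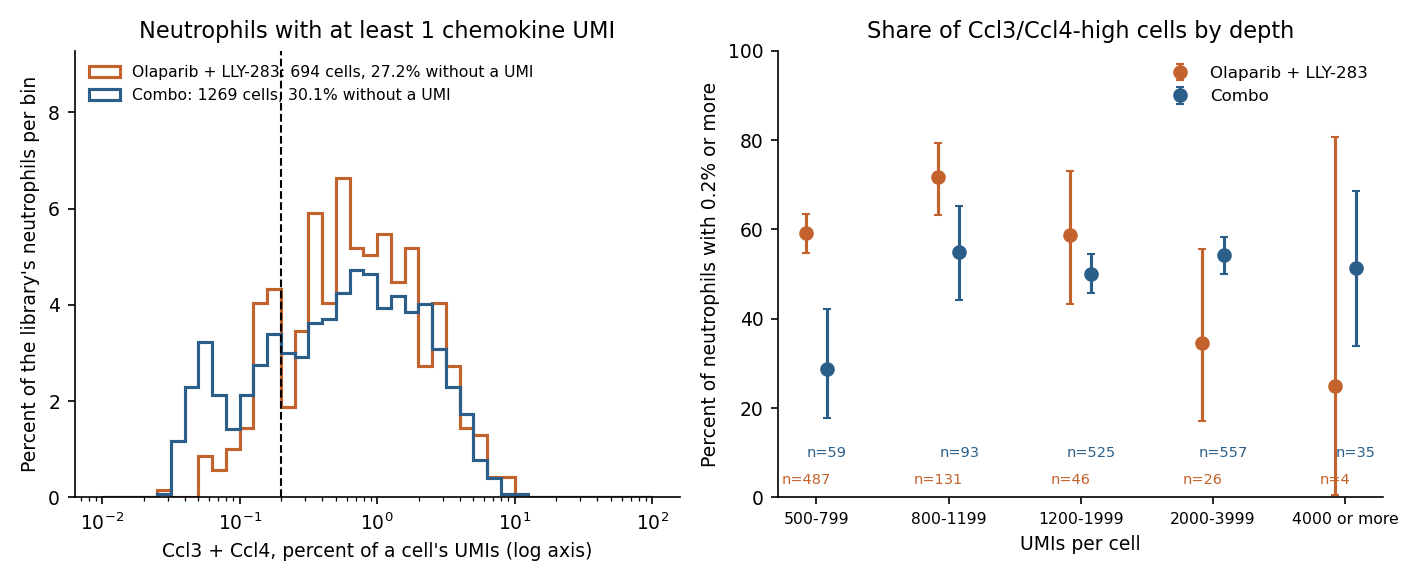
Left, histogram of the Ccl3 and Ccl4 share of each neutrophil (percent of its UMIs, log axis) by library, with cells without a chemokine UMI left out and the 0.2% limit dashed; right, percent of neutrophils at or over the limit by UMIs per cell, with exact 95% intervals and the number of neutrophils (n). Cells lie on both sides of the limit without a gap, and the 487 shallow neutrophils of Olaparib + LLY-283 reach 59.1% where the 59 of Combo reach 28.8%.

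The chemokine UMIs of the members, on which the choice rests, were not spread evenly over the cells. The tenth of members with the most chemokine UMIs (42 and 65 cells) held 34.6% and 35.5% of all chemokine UMIs of the members. The cells were also grouped by their summed share of the 2 genes, which fixes the direction of the values of both. From the members at 0.2 to 0.5% to those at 2% or more, Ccl4 went from 1532 to 22054 CPM in Olaparib + LLY-283 and from 1249 to 21543 CPM in Combo, and Ccl3 from 1947 to 14244 and from 2063 to 12424 CPM. Both genes lie on chromosome 11 of mm10 as neighbours, Ccl3 (ENSMUSG00000000982) at 83647844 to 83649355 on the minus strand and Ccl4 (ENSMUSG00000018930) at 83662584 to 83664683 on the plus strand.

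Ccl3/Ccl4-high neutrophils, chosen for these transcripts, carried a large share of those in the libraries. All shares in this paragraph are of the cells that passed the filters and of their UMIs. They were 2.61% of the cells of Olaparib + LLY-283 but held 34.9% of its Ccl3 and 30.6% of its Ccl4 UMIs, and in Combo 10.9% of the cells held 58.6% and 52.7%. Their own levels lay close in the 2 libraries, Ccl3 at 6219 and 6544 CPM and Ccl4 at 7107 and 8320.4 CPM. Cells with C1q transcripts at 0.1% of UMIs or more, a rule that takes macrophages, came next at 518 and 342 CPM of Ccl3 and 689 and 636 CPM of Ccl4. Cells with more than 2 keratin UMIs, 10329 and 3028 in number, had 15.5 and 20.8 CPM of Ccl3, which includes any free RNA taken up in the droplets, but made up 64.4% and 50.8% of the cells and held 33.0% and 20.3% of the Ccl3 UMIs. The other neutrophils, under the limit by choice, stood above that level at 295 and 247 CPM.

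A receptor for Ccl3 was carried by the neutrophils themselves. Ccr1, which binds Ccl3, was at 831 against 732 CPM in Ccl3/Ccl4-high and other neutrophils of Olaparib + LLY-283 and 1190.2 against 1123 CPM in Combo. In C1q-bearing cells it was at 201 and 253 CPM and in keratin-bearing cells at 4.46 and 9.07 CPM. Ccr3 had 0 and 2 UMIs in the members.

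**Figure D2:**
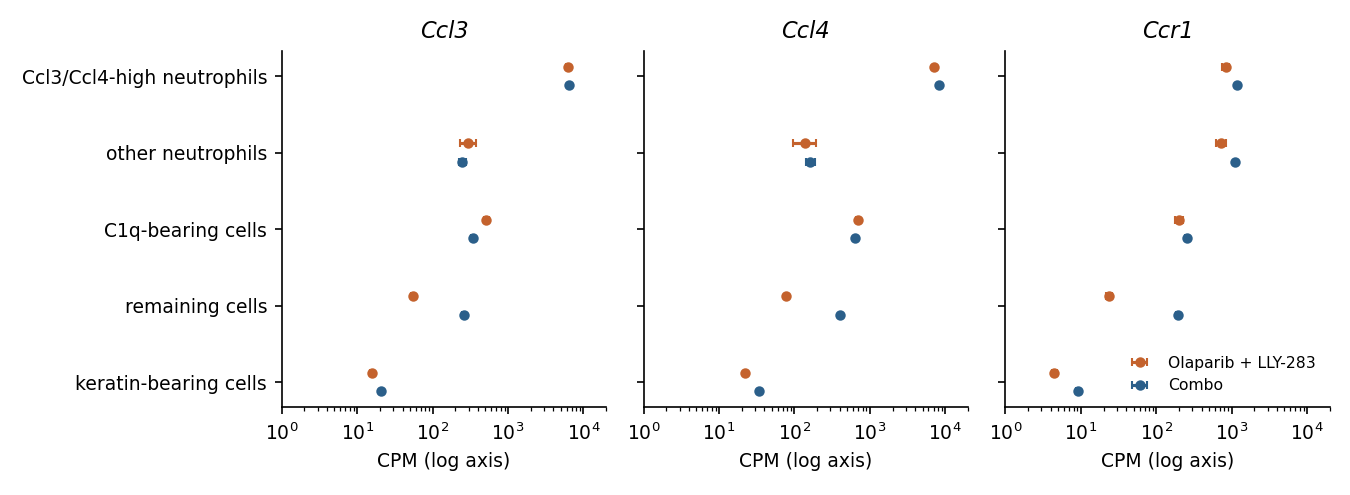
Level of Ccl3, Ccl4 and the receptor gene Ccr1 (CPM of summed UMIs, log axis) in 5 classes of cells of each library, with exact 95% Poisson intervals. Ccl3/Ccl4-high neutrophils, chosen by Ccl3 and Ccl4, stand highest for both ligands and neutrophils of both kinds highest for Ccr1.

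Beside Ccl3 and Ccl4, the members carried more transcripts of the chemokines Cxcl2, Cxcl3 and Ccl6 and of Hilpda, Cd274 and Hcar2 than the other neutrophils. Of 1538 genes with at least 50 UMIs over the neutrophils of each library, 13 (0.845%) were at least 2-fold higher in Ccl3/Ccl4-high cells in both libraries and 8 (0.52%) at least 2-fold lower. With at least 500 genes per cell these counts were 6 and 2, with neutrophil genes at 2% or more of UMIs 7 were higher, and with cells thinned to 500 UMIs 2 were lower. By any amount, 312 (20.3%) were higher in both libraries and 786 (51.1%) lower in both. The median gene had a log2 ratio of -0.13 in Olaparib + LLY-283 and -0.14 in Combo. With median-of-ratios scaling, which sets that median near 0, 20 genes were 2-fold higher and 3 lower. Over these genes the log2 ratios of the 2 libraries had a Pearson correlation of 0.562 and a Spearman correlation of 0.487, where genes are not independent replicates.

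Cxcl3 and Ccl6 were the chemokines among the genes at least 2-fold higher in both libraries. Cxcl3, a ligand of Cxcr2 that attracts neutrophils, was at 5217 against 1969.6 CPM in Olaparib + LLY-283 and 6306 against 2555 CPM in Combo, 2.65-fold [2.39 to 2.93] and 2.47-fold [2.37 to 2.57] higher. Ccl6, a CC chemokine of myeloid cells, was at 3893 against 1678 CPM in Olaparib + LLY-283 and 3379 against 1418 CPM in Combo. Cxcl2, another Cxcr2 ligand and the most abundant chemokine, was at 37365 against 14224 CPM in Olaparib + LLY-283 and 39835 against 20779 CPM in Combo. Its log2 ratios were 1.39 and 0.94, of which the second lay just under the 2-fold limit. Levels of these 3 chemokines thus lay apart in the same direction in both libraries.

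Hilpda, whose protein holds back lipid breakdown at lipid droplets and is known to respond to low oxygen, had the largest ratios among the genes with over 100 UMIs in both classes of both libraries, at 1624 against 586 CPM in Olaparib + LLY-283 and 1112 against 339.7 CPM in Combo. Its ratios were 2.76-fold [2.30 to 3.35] and 3.27-fold [2.94 to 3.65]. Cd274 encodes PD-L1, the ligand of the PD-1 receptor that the antibody of the Combo group blocks. Its level was 323 against 129 CPM in Olaparib + LLY-283 and 370.1 against 156 CPM in Combo, log2 ratios of 1.30 without and 1.25 with the antibody, and whether these differ was not tested. Hcar2, a receptor for niacin and ketone bodies, had log2 ratios of 1.31 and 1.17.

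Other leading genes had a variety of known functions. Zc3h12a, an RNase that degrades messages of inflammatory genes, had log2 ratios of 1.78 and 1.16, and Il1rn, the antagonist of the interleukin-1 receptor, 1.16 and 0.98. F3 encodes tissue factor, the starter of blood clotting, and stood at 149 against 68.8 CPM in Olaparib + LLY-283 and 222 against 67.0 CPM in Combo. Egln3, an oxygen-dependent prolyl hydroxylase, had 1.10 and 1.01, the transcriptional repressor Tgif1 1.13 and 1.39, the endoplasmic reticulum chaperone Dnajb9 1.77 and 1.08 and Ifrd1 1.09 and 1.61. E230032D23Rik, named only by its clone, ranked first with 1.86 and 1.58, from 61 against 12 and 321 against 102 UMIs. Among the 13 genes past 2-fold, Cxcl3 and Hilpda stayed past it in both libraries under all 16 alternatives, and the other 11 were under it in at least 1. Some of these alternatives alter only the count minimum or remove no cell, and so could not change a ratio. Egln3 was under 2-fold in 8, with a lowest value of 0.59. The smaller log2 ratio of F3 was 0.23 with at least 500 genes per cell and 0.67 after thinning, and that of E230032D23Rik was 0.86 with a chemokine limit of 0.5%. Tnfrsf26 and Basp1 complete the 15, with 1.11 and 1.17 and 1.03 and 0.99.

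**Figure D3:**
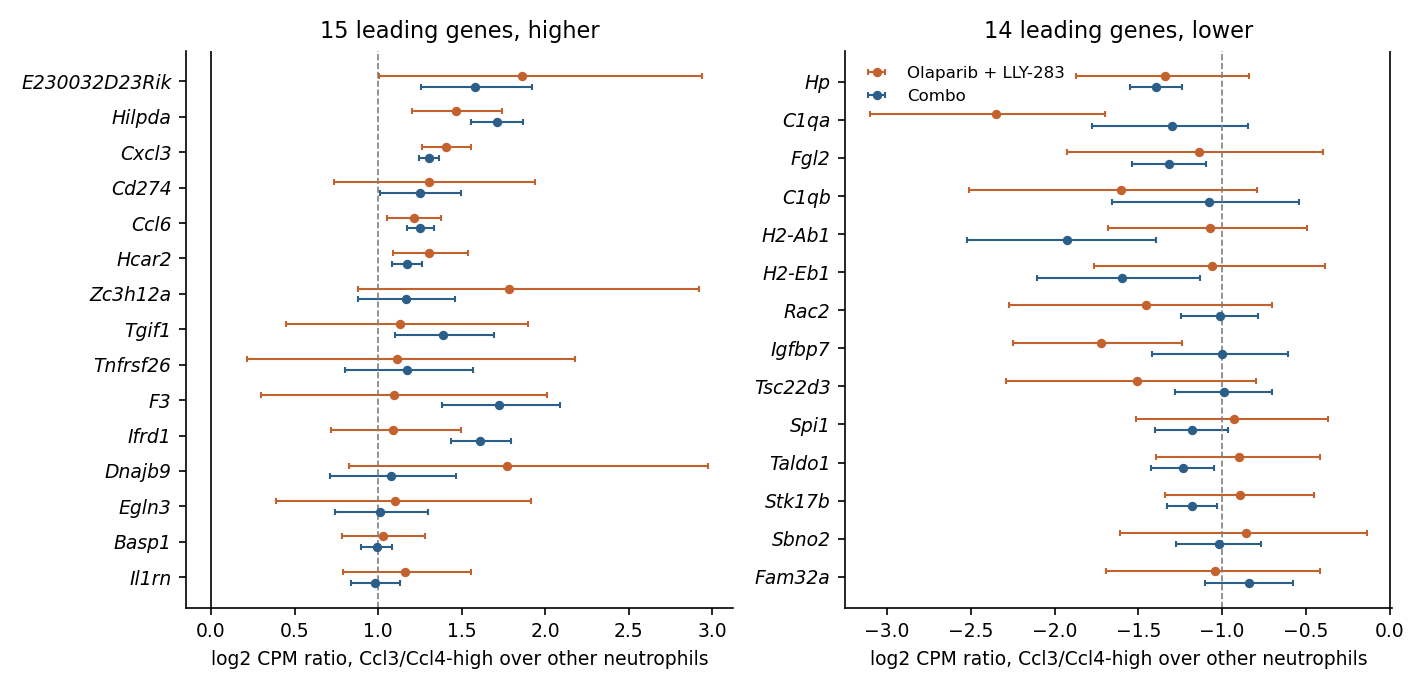
Log2 ratio of CPM in Ccl3/Ccl4-high over other neutrophils for the 15 leading genes that were higher and 14 that were lower, by library, with exact 95% counting intervals; the dashed line marks 2-fold and the solid line no difference. Genes were ranked by the smaller ratio of the 2 libraries, so that both points lie on the same side by choice.

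Promoter sequences of RefSeq (build GRCm38.p6, the patch release of mm10) show what lies upstream of 3 chemokine genes and of Hilpda, while Ccl4 had no entry. The 250 bases before each start were searched on both strands for GGG, any 2 bases and TTTCC, a form of the site that NF-kB proteins bind, and for ACGTG, the core of the site that hypoxia-inducible factors bind and also a stretch of the E-box CACGTG. Of 27025 genes with an entry, 447 (1.65%) held the former and 4998 (18.5%) the latter at some start. Of the 15 leading genes 13 had an entry, and the former was found in Cxcl3 and Il1rn and the latter in 5, namely Hilpda, Cxcl3, Tgif1, Dnajb9 and Egln3. Of the 15 leading genes that were lower 9 had an entry, of which none held the former and 2 the latter. The 120 bases before the start are printed 5′ to 3′ for the gene's strand, with matches in capitals, for Cxcl3 (chr5:90785981-90786100, plus strand), Cxcl2 (chr5:90903779-90903898, plus strand) and Ccl3 (chr11:83649379-83649498, minus strand), searched for the NF-kB letters, and for the second start of Hilpda (chr6:29272506-29272625, plus strand), searched for ACGTG.
Cxcl3: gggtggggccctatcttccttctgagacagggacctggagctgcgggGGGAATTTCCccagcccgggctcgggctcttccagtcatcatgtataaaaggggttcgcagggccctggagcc
Cxcl2: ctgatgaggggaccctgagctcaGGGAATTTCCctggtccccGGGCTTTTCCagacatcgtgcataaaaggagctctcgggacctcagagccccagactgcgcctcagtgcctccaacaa
Ccl3: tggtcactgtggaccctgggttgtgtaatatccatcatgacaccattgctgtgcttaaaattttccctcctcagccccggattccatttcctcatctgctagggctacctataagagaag
Hilpda: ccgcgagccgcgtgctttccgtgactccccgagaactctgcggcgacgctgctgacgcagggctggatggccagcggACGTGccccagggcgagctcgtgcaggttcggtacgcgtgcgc
Cxcl2 held 2 matches and Cxcl3 held 1, while the 250 bases of Ccl3 held none in these letters. The 250 bases before the other start of Hilpda (chr6:29272368-29272487 for the last 120) held no ACGTG. Starts are those of RefSeq, and the GENCODE M21 annotation begins Cxcl2 at 90903871, inside its printed window. A match describes letters in this window and shows no binding.

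Across steps of the chemokine share the genes followed here took different courses. Cxcl2 was at 13996 CPM in neutrophils without a chemokine UMI, 14627 CPM under 0.2%, 23987 CPM at 0.2 to 0.5% and 58383 CPM at 2% or more in Olaparib + LLY-283, and went through 20756, 20809, 27501 and 53776 CPM in Combo. Nfkbia, which encodes the inhibitor that holds NF-kB in the cytoplasm, went through 1611, 1396, 2649.8 and 4067 CPM and through 2475, 2416, 3458 and 5821 CPM. These 2 genes thus lay close in both steps below the limit. Ccl6 and Hilpda were already higher below it, Ccl6 at 1281, 2378, 2565 and 5506 CPM in the same steps of Olaparib + LLY-283 and 1062, 1881, 2262 and 4617 CPM in Combo. Hilpda was at 476, 782, 905 and 2289 CPM and at 278, 420.1, 938 and 1391 CPM. Its rise was not steady: at 0.5 to 1% and 1 to 2% it was at 1991 and 1470 CPM in Olaparib + LLY-283 and 1096 and 995 CPM in Combo. The ferritin heavy chain gene Fth1 was at 29329 and 30204 CPM in cells without a chemokine UMI and at 54532 and 56804 CPM at 2% or more. Il1b did not end higher in both libraries. It was at 9905 and 10393 CPM at the 2 ends in Olaparib + LLY-283 and at 17581 and 14942 CPM in Combo. Fos ran the other way, from 2029 to 928 and from 3051 to 1220.3 CPM.

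**Figure D4:**
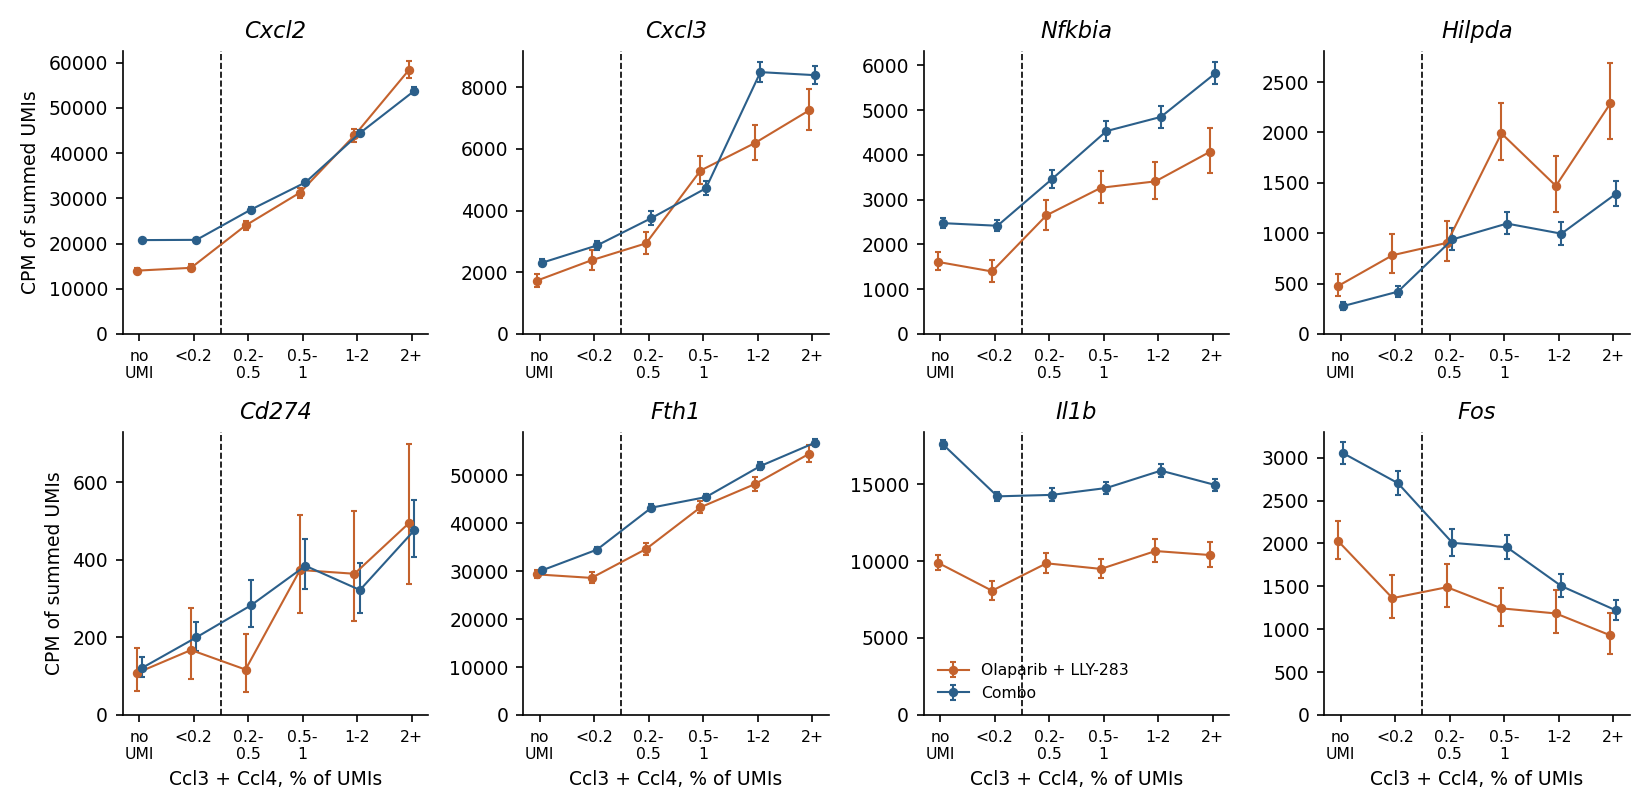
Level of 8 genes (CPM of summed UMIs, linear axis from 0) in neutrophils grouped by their Ccl3 and Ccl4 share, by library, with exact 95% Poisson intervals; the dashed line marks the 0.2% limit. Cxcl2, Cxcl3, Nfkbia, Hilpda, Cd274 and Fth1 end higher at 2% or more than in cells without a chemokine UMI, Fos ends lower, and Il1b goes from 9905 to 10393 CPM in Olaparib + LLY-283 and from 17581 to 14942 CPM in Combo.

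The NF-kB pathway was measured in part. Of 30 listed targets and feedback genes 10 were measured, 8 were higher in both libraries, 1 was lower in both and 1, Zc3h12a, passed 2-fold. Their median log2 ratio was 0.77 and 0.66, beside -0.13 and -0.14 over all genes. The counts of genes higher in both libraries, here and in the lists that follow, stand beside 20.3% of all genes, and those lower in both beside 51.1%. Nfkbia had 1.10 and 0.94, the stress-response gene Ier3 0.99 and 0.69, Tnfaip3, a deubiquitinase that ends NF-kB signalling, 0.73 and 0.64, and the adaptor Traf1 1.08 and 0.84. Tnfaip2 was the one lower in both, with -0.28 and -0.85.

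Among 8 measured cytokines and growth factors of 26 listed, 7 were higher in both libraries and none passed 2-fold in both, with medians of 0.33 and 0.29. Osm, a cytokine of the interleukin-6 family, had 0.36 and 0.21 and the prostaglandin synthase Ptgs2 0.49 and 0.13. Tnf and Il1a were too sparse for this comparison, with 13 and 132 UMIs of Tnf and 12 and 146 of Il1a in the members. Interleukin-6 was at 0 UMIs in the members of both libraries.

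Of 14 CC and 13 CXC chemokines only 3 and 4 passed the count minimum beside Ccl3 and Ccl4. Ccl9 had log2 ratios of 0.61 and 1.14 and Cxcl1 of 1.23 and 0.36, while Ccl2, an attractant of monocytes, was higher in one library and lower in the other (0.50 and -0.70). Ccrl2, an atypical receptor that presents chemerin, was at 1279.7 against 643 CPM in Olaparib + LLY-283 and 2065 against 1145 CPM in Combo. Thus its log2 ratios of 0.99 and 0.85 came close to 2-fold in both libraries.

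Of 35 listed hypoxia and glycolysis genes 28 were measured, 17 were higher in both libraries and 3 lower in both, and only Hilpda and, short of 2-fold in 8 of the 16 alternatives, Egln3 passed 2-fold. Medians were 0.06 and 0.25. The lactate dehydrogenase gene Ldha had 0.37 and 0.53 and the phosphofructokinase gene Pfkp 0.91 and 0.80, whereas Gapdh had 0.03 and 0.11 and Adm, an oxygen-responsive peptide hormone gene, -1.83 and -0.12. In the list of lipid droplet and NRF2 genes, where 11 of 18 were measured and none passed 2-fold in both, Fth1 had 0.60 and 0.62, the droplet coat gene Plin2 0.46 and 0.97 and Gclm, a subunit of glutathione synthesis, -0.71 and -0.47.

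Immediate early genes are transcribed soon after a stimulus. Of 34 listed genes 21 were measured, with 7 higher and 8 lower in both libraries, none past 2-fold in both, and medians of 0.07 and -0.15. The transcription factor gene Atf3 had 0.78 and 1.03 and Maff 1.03 and 0.73, and lower were Fos at -0.53 and -0.79, Jund at -0.88 and -0.49 and the antiproliferative gene Btg2 at -0.47 and -0.79. Of 46 listed interferon-stimulated genes 17 were measured, with 4 higher and 8 lower in both, shares near those of all genes, none past 2-fold in both, and medians of -0.05 and -0.15. Rsad2, an antiviral enzyme, had 0.80 and 1.20 and Slfn4 0.72 and 0.37, against -0.36 and -0.73 for Ifitm1 and -0.29 and -0.53 for Ifitm2, membrane proteins that block virus entry.

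Of the list of immune-suppressive neutrophil genes 8 of 19 were measured, 6 were higher in both libraries and only Cd274 passed 2-fold. The inflammasome gene Nlrp3 had 0.65 and 0.78 and Wfdc17 0.68 and 0.33. In the list of tumor neutrophil genes, with 10 of 16 measured and 6 higher in both, Cd274 alone passed 2-fold in both, Xbp1, a transcription factor of the unfolded protein response, had 1.00 and 0.87 and the protease inhibitor Cstb 0.75 and 0.71. Of 6 measured survival and death genes 5 were higher in both, 1 was lower in both and none passed 2-fold in both. Mcl1 was at 0.34 and 0.13 and Bcl2l1 at 0.74 and 0.26. Of 10 measured heat shock genes 5 were lower in both and none higher in both, with a median of -0.30 in Olaparib + LLY-283 and near 0 in Combo.

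Among 19 measured neutrophil markers outside the choice, 5 were higher and 5 lower in both libraries and none passed 2-fold in both. The lectin receptor Clec4e had 0.59 and 0.36 and the itaconate-making enzyme Acod1 0.78 and 0.39. Lower were Mmp9, a granule protease, at -0.88 and -0.52, Lrg1 at -0.54 and -1.01 and Msrb1 at -0.34 and -0.83. Lcn2, a granule protein, had -0.70 and -0.52. Retnlg differed between the libraries, with 1698 against 1602 CPM in Olaparib + LLY-283 and 621 against 1265 CPM in Combo.

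The 8 genes lower by 2-fold or more included neutrophil genes and genes of antigen-presenting cells. Hp, which encodes haptoglobin and is carried by maturing neutrophils, was at 149 against 380.2 CPM in Olaparib + LLY-283 and 343 against 900.4 CPM in Combo, 2.53-fold and 2.62-fold lower. Fgl2, a fibrinogen-like protein, had log2 ratios of -1.14 and -1.31, and Rac2, a GTPase of the neutrophil oxidase and of migration, -1.45 and -1.01. The complement genes C1qa and C1qb, on the macrophage list, had -2.35 and -1.30 and -1.60 and -1.08, and the MHC class II genes H2-Ab1 and H2-Eb1, on the dendritic cell list, -1.07 and -1.93 and -1.06 and -1.60. Igfbp7, which encodes a secreted matrix protein, was at 144 against 477 CPM in Olaparib + LLY-283 and 57.9 against 116 CPM in Combo.

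Transcripts of macrophages, monocytes and dendritic cells were lower in the members of both libraries, while the tumor cell, endothelial and erythroid and platelet lists differed in direction between the libraries. The macrophage list summed to 1758 CPM in Ccl3/Ccl4-high and 3017 CPM in other neutrophils of Olaparib + LLY-283, and to 1218 and 1788 CPM in Combo. The 12 dendritic cell markers, of which Cd74 was the most abundant and 6 and 4 had no UMI in the members, summed to 765 and 1229 CPM and to 185 and 733 CPM. The 10 monocyte markers, led by Fn1 and with 2 and 1 at 0 in the members, stood at 762 against 1331 CPM and 632 against 811 CPM in members against other neutrophils of Olaparib + LLY-283 and of Combo. In the same order the 8 tumor cell markers, led by Cd24a and with 4 and 2 at 0, stood at 691 against 728 CPM and 657 against 474 CPM, the 6 endothelial markers, led by Pecam1 and with 3 and 1 at 0, at 47.8 against 206 CPM and 38.8 against 16.9 CPM and the 8 erythroid and platelet markers, led by Pf4 and with 5 and 2 at 0, at 176 against 105 CPM and 53.5 against 156 CPM. Of the UMIs in the members, 5 cells held 82.9% and 28.6% for H2-Ab1 and 56.5% and 12.3% for C1qa in Olaparib + LLY-283 and in Combo. A C1q UMI was found in 5.73% of members and 8.73% of other neutrophils of Olaparib + LLY-283 and, in the deeper cells of Combo, in 17.4% and 16.2%. With the 5% deepest cells of each class left out, C1qa, C1qb, H2-Ab1 and H2-Eb1 were no longer lower in both libraries. The part of such RNA in these ratios was not tested. The ratio nearer to 0 of Igfbp7 was -0.082 without these deepest cells, that of Fgl2 was -0.47 with at least 500 genes per cell and that of Rac2 was -0.72 after thinning. The other leading genes on this side stayed short of 2-fold in one library or both, among them Spi1, the transcription factor PU.1 of the myeloid lineage (-0.93 and -1.18), the glucocorticoid-induced gene Tsc22d3 (-1.51 and -0.99), Taldo1, an enzyme of the pentose phosphate pathway (-0.90 and -1.23), and Stk17b, Sbno2 and Fam32a with ratios from -1.18 to -0.84.

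Between the libraries, Ccl3/Ccl4-high neutrophils of the Combo group had more Mmp9, Hp and Btg2 transcripts. MHC class II and collagen transcripts were fewer, but 5 members of Olaparib + LLY-283 held 78.6% of the Cd74 and 66.1% of the Col3a1 UMIs of the members there, and the dendritic cell and fibroblast lists were lower alongside (765 and 185 CPM, 2401 and 817 CPM in the members). Of 3590 genes with at least 50 UMIs summed over the members of both libraries, 188 (5.24%) were at least 2-fold higher in Combo and 197 (5.49%) at least 2-fold lower. A gene could pass this minimum through the Combo members alone, which held most of the UMIs. The counts moved with the settings: 112 were higher with a prior of 2 UMIs, 72 higher and 48 lower with cells thinned to 500 UMIs, 365 and 496 with at least 500 genes per cell, and 121 lower without the 5% deepest cells of each class. The genes themselves changed too. After thinning, with 1524 genes over the minimum, 32 of the 188 and 22 of the 197 stayed past 2-fold. With at least 500 genes per cell 117 and 110 did, and with mitochondrial UMIs under 10% 177 and 176. Of the 188 and 197, 73 and 70 were past 2-fold in the same direction in the other neutrophils, whose values come from the same 2 libraries. The median log2 ratio over these genes was -0.03 in the members and -0.10 in the other neutrophils. Ribosomal protein genes made up a median of 10.7% of UMIs in members of Olaparib + LLY-283 and 6.23% in those of Combo.

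On the higher side, Mmp9 was at 80.7 and 235 CPM and Hp at 149 and 343 CPM, log2 ratios of 1.51 and 1.19 in the members and 1.15 and 1.24 in the other neutrophils. Btg2 had 1.20 in the members and 1.52 in the other neutrophils, and the glycolysis regulator Pfkfb3 1.10 and 1.64. These 4 genes were thus higher in both kinds of Combo neutrophils.

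By list, genes could pass the minimum through Combo as above, and the counts stand beside 5.24% of all genes higher and 5.49% lower and the medians beside -0.03 in the members and -0.10 in the other neutrophils. Of the interferon-stimulated genes 40 could be compared and 4 were 2-fold higher and none 2-fold lower in Combo, with medians of 0.55 in the members and 0.46 in the other neutrophils. The most abundant gene of that list, Ifitm1, had 0.45 and 0.82 and Isg15, a ubiquitin-like interferon product, 0.53 and 0.40. Of 22 NF-kB targets 2 were 2-fold higher and none lower, with medians of 0.58 and 0.61, and of 21 neutrophil markers 2 were 2-fold higher and 1 lower, with 0.66 and 0.80. Of 7 granule and immature neutrophil genes 4 were 2-fold higher and none lower, with 1.11 and 0.17. The neutrophil marker that was lower was Retnlg, at -1.45 in the members and -0.34 in the other neutrophils. Hilpda was at -0.55 and -0.79 and Areg, a growth factor of the EGF family, at -1.39 and -1.27. Cd274, Cxcl2 and Cxcl3 lay close together in the 2 libraries, with log2 ratios of 0.19, 0.09 and 0.27 in the members.

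The 10 genes with the highest ratio in Combo rested on 1 to 5 UMIs in Olaparib + LLY-283, so that they passed the minimum through the Combo members and their sizes are loosely bounded, and the ranking is only a description. Cxcr1, a chemokine receptor related to Cxcr2, had 1 and 60 UMIs, a ratio of 9.89 [2.54 to 590.5]. Hal, the histidine ammonia lyase, had 5 and 111 UMIs, a ratio of 4.97 [2.26 to 17.1]. The others were Rnf125, Ccno, Klhl6, 4930581F22Rik, Gbe1, Lilra6, Mau2 and Acly, with ratios between 4.76 and 9.07 and lower limits of at least 1.54.

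The 10 genes with the lowest ratio are known chiefly from other cell types. They were the MHC class II genes H2-Ea-ps, H2-Ab1, H2-Aa and Cd74, the matrix genes Col3a1 and Dcn, the platelet and macrophage chemokine Pf4, and the muscle genes Tnnt3, Ckm and Mylpf. Col3a1 was at 846 CPM in members of Olaparib + LLY-283 and 179 CPM in those of Combo, Cd74 at 377 and 79.2 CPM and Tnnt3 at 152 and 30.8 CPM. In Olaparib + LLY-283 5 members held all of the Tnnt3 UMIs. The fibroblast list of 7 genes, led by Col1a2 and with none at 0, summed to 2401 and 817 CPM in the members and to 2402 and 1837 CPM in the other neutrophils. The part of this RNA in the counts of genes lower in Combo was not tested.

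**Figure D5:**
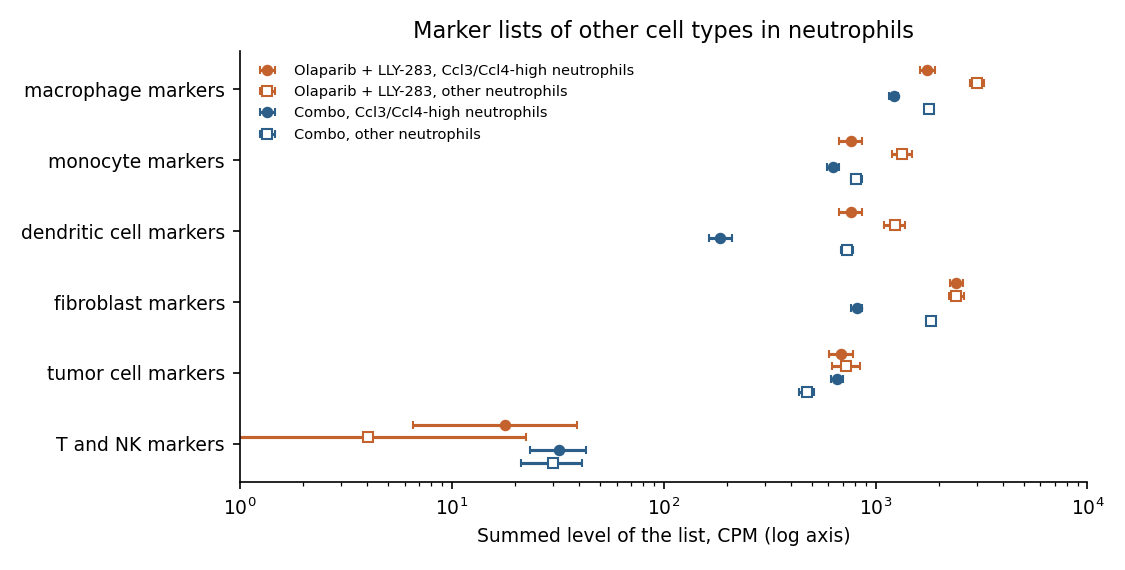
Summed level of marker lists of other cell types (CPM, log axis) in Ccl3/Ccl4-high (filled circles) and other neutrophils (open squares) of each library, with exact 95% Poisson intervals. T and NK markers stay under 50 CPM, macrophage markers are lower in Ccl3/Ccl4-high than in other neutrophils of both libraries, and fibroblast and dendritic cell markers are lowest in Ccl3/Ccl4-high neutrophils of Combo.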

How the data were processed

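Per the labels and methods, EMT6 tumors of 3 mice were pooled per group, dissociated, freed of red and dead cells, and sequenced as 10x 3′ libraries. The deposited values are UMI counts per gene and cell that the authors made with Cell Ranger against mm10. The matrix header names version 6.1.2, and the submitters' processing notes name bcl2fastq 5.0.1 and Seurat 4.1.0. The methods name later versions of Cell Ranger and Seurat. All 55450 gene identifiers were found in GENCODE M21, which gave positions. Whether doublets were removed is not given in the sources used here.

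UMIs were summed per class and library and divided by the class total (CPM). Log2 ratios used 0.5 UMIs added to each count, and a gene counted as apart at 2-fold. No test was possible with 1 library per group. Intervals are exact Clopper-Pearson (shares), Poisson (CPM) or conditional binomial (ratios) at 95%. Named genes were the 7 of the choice, list members with the largest ratios or most UMIs (at most 5 each way), 15 per direction against other neutrophils, 10 per direction between libraries, and the 5 most abundant. Members and lists were chosen with earlier results of these data known. Tools were Python 3.11.15, numpy 2.4.6, pandas 2.3.3, scipy 1.17.1 and, for Scrublet, scanpy 1.11.5. A few genes are not reported here. The ratio step was tested on simulated data.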

Additional observations from a re-analysis of the deposited data

Results flagged for a closer look

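For 15 of 1786 genes examined (1538 over the count minimum and 248 named genes under it) the ratio of Ccl3/Ccl4-high over other neutrophils had counting intervals on opposite sides of 1 in the 2 libraries. The difference between libraries was not tested, since each group is 1 library. Tnnt3, a muscle troponin gene whose UMIs in members of Olaparib + LLY-283 all lay in 5 cells, so that its interval does not describe the members at large, had a ratio of 5.08 [2.43 to 14.1] in Olaparib + LLY-283 and 0.647 [0.425 to 0.969] in Combo, and Pf4 one of 1.64 [1.02 to 2.77] in Olaparib + LLY-283 and 0.314 [0.230 to 0.418] in Combo. Nr4a1, an immediate early nuclear receptor gene, had 4.88 [1.39 to 53.0] in Olaparib + LLY-283 and 0.471 [0.351 to 0.623] in Combo, from only 2 UMIs in the other neutrophils of the former library, under the count minimum. The collagen gene Col3a1 had 1.25 [1.03 to 1.53] in Olaparib + LLY-283 and 0.494 [0.421 to 0.578] in Combo. In members of Olaparib + LLY-283 most Col3a1 UMIs lay in 5 cells, so its interval there does not describe the members at large either. The glucose transporter gene Slc2a3 had 1.86 [1.00 to 3.82] in Olaparib + LLY-283 and 0.776 [0.630 to 0.953] in Combo, Cox7a2l 1.68 [1.06 to 2.78] in Olaparib + LLY-283 and 0.719 [0.558 to 0.922] in Combo, Rnf149 1.69 [1.12 to 2.65] in Olaparib + LLY-283 and 0.878 [0.774 to 0.995] in Combo and Lyst, a lysosome trafficking gene, 1.49 [1.04 to 2.18] in Olaparib + LLY-283 and 0.853 [0.749 to 0.972] in Combo. Spp1, which encodes osteopontin, ran the other way with 0.753 [0.680 to 0.834] in Olaparib + LLY-283 and 1.36 [1.28 to 1.45] in Combo, as did the calcium pump gene Atp2b1 with 0.682 [0.487 to 0.954] in Olaparib + LLY-283 and 1.21 [1.05 to 1.40] in Combo and the chaperone gene Hspa5 with 0.714 [0.584 to 0.873] in Olaparib + LLY-283 and 1.17 [1.06 to 1.30] in Combo. The remaining 4 genes are abundant and their ratios small. They were Fcer1g with 1.24 [1.09 to 1.42] in Olaparib + LLY-283 and 0.902 [0.859 to 0.948] in Combo, Cebpb with 1.14 [1.03 to 1.27] in Olaparib + LLY-283 and 0.942 [0.910 to 0.975] in Combo, Il1b with 1.09 [1.03 to 1.15] in Olaparib + LLY-283 and 0.928 [0.910 to 0.946] in Combo and Malat1 with 0.905 [0.876 to 0.935] in Olaparib + LLY-283 and 1.08 [1.07 to 1.10] in Combo.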

How the results depend on the processing

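No paired analysis was possible because each group has 1 library. For the 30 genes named against other neutrophils, 427 of 480 values over 16 alternatives stayed close to the reported one, 38 moved and 15 changed sign, and 26 genes kept their side throughout. For the 20 genes named between libraries, 270 of 320 stayed close, 47 moved and 3 changed sign. Some of the 16 alternatives could not change a ratio, so their values stayed close by design. The minimum of 20 UMIs and no filter beyond 1 UMI alter only which genes are counted. An added minimum of 2 chemokine UMIs per member removed no cell. The share of Ccl3/Ccl4-high cells in Olaparib + LLY-283 and in Combo was 70.2% and 59.6% with a limit of 0.1%, 45.1% and 38.1% with 0.5%, and 66.7% and 56.8% with cells thinned to 500 UMIs. With at least 500 genes per cell the Olaparib + LLY-283 share was 55.3% (73 of 132). Against the reported 13 higher and 8 lower genes, there were 6 and 2 with at least 500 genes per cell, 20 and 24 with a minimum of 20 UMIs, 351 and 647 with no filter beyond 1 UMI, and 20 and 3 with median-of-ratios scaling. With neutrophil genes at 2% or more 7 were higher, and after thinning 2 were lower. Between libraries, against 188 higher and 197 lower in Combo, there were 365 and 496 with at least 500 genes per cell, 72 and 48 after thinning, 441 and 561 with a minimum of 20 UMIs and 1254 and 3220 with no filter beyond 1 UMI. A prior of 2 UMIs gave 112 higher, and leaving out the 5% deepest cells of each class gave 121 lower. The cause of these changes was not tested.

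Signs changed for C1qa, C1qb, H2-Ab1 and H2-Eb1 against other neutrophils, given as the log2 ratio in the library nearer to the other side. After thinning they had 0.34, 0.86, 0.87 and 1.72, and without the 5% deepest cells 0.0082, 0.82, 0.63 and 0.73. C1qb had 0.016 with neutrophil genes at 2% or more. Without cells of 2 or more C1q UMIs C1qa had 0.19 and C1qb 3.19. That filter acts on these same genes, so both values only describe what it leaves. With a chemokine limit of 0.1% H2-Ab1 had 1.18 and H2-Eb1 1.24, and as a mean over cells C1qb had 0.076 and H2-Eb1 0.070. Between libraries a limit of 0.5% turned Tnnt3 to 1.87, Ckm to 0.52 and Mylpf to 1.28. The Scrublet limit was chosen after seeing the data, since the limits Scrublet set itself (0.651 and 0.552) marked no cell. Scores over 0.25 fell on 22.6% and 1.48% of the cells that passed, among them 19 and 3 Ccl3/Ccl4-high neutrophils (4.53% and 0.461%) and 36 and 5 other neutrophils (13.1% and 0.809%), and leaving them out kept 11 of the 13 higher and 6 of the 8 lower genes. A mitochondrial limit of 10% kept 12 and 6. Fewer were kept elsewhere: 6 and 1 after thinning (920 genes tested), 4 and 2 with at least 500 genes per cell (598 tested) and 6 and 3 with neutrophil genes at 2% or more. Without the 5% deepest cells 10 and 3 were kept, and as a mean over cells 12 and 3. The shallow Olaparib + LLY-283 neutrophils limit what can be seen of sparse genes: a count of 0 in its 419 members allows up to 8.97 CPM if 3 counts are taken as the limit that a 0 allows.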

Other observations

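Cxcl10, an interferon-induced chemokine that attracts T cells, was at 47.8 CPM in Ccl3/Ccl4-high and 76.8 CPM in other neutrophils of Olaparib + LLY-283, and at 141 and 37.7 CPM in Combo. It was carried by few cells, since 5 Combo members held 81.3% of its UMIs in the members of that library. The gene stayed under the count minimum of the contrast with other neutrophils. Il1a, an alarm cytokine gene, was likewise sparse, with 12 UMIs in Ccl3/Ccl4-high and 4 in other neutrophils of Olaparib + LLY-283 and 146 and 30 in Combo.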
